A study of Mus musculus with 82 samples.

Results

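Receptors through which smooth muscle senses vasoactive mediators other than angiotensin II and thromboxane were followed in cultured mouse aortic vascular smooth muscle cells (aVSMC), together with the gene of one such mediator. The 10 genes were listed by name, for what they encode: Edn1, Ednra, Ednrb, S1pr1, S1pr3, Lpar1, F2r, Htr2b, P2ry2 and Avpr1a. Earlier results of these data were known when the list was made. All 10 are among the 55401 genes of the count tables, and 34819 of these genes were read in some library. Poly(A) RNA was sequenced from cultures of primary cells of C57BL/6 mice, used up to passage 7. They were grown with serum and supplements that included 10 µg/L EGF, kept without any supplement for 24 h, and then incubated in supplement-free medium. The control cultures therefore shared the earlier exposure to EGF.

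The substances were EGF at 10 µg/L, AngII at 10 nM and U46619, a stable agonist of the thromboxane receptor TP, at 1 µM. For 24 h, every one of 6 mice gave 7 cultures, namely a control, one with each substance alone, the pairs EGF+AngII and EGF+U46619, and all 3 together (EGF+AngII+U46619), 42 libraries in total. The 40 libraries of 48 h came from 10 culture sets of 4 cultures each. In 5 sets, the EGF/U46619 batch, a control was set beside EGF, U46619 and their combination. The other 5, the EGF/AngII batch, had AngII in place of U46619. The labels name 5 mice for these 10 sets, although by the methods no mouse served for more than 1 replicate. P-values measure the spread between these cultures.

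Total counts were 16483529 to 20818809 per library after 24 h and 19936925 to 33916114 after 48 h. Levels are given as FPM, fragments counted per 1000000 of the library after TMM scaling. The smooth muscle markers Acta2 and Myh11 were detected in every library of 24 h, with Acta2 between 1149 and 4949 FPM in the controls. Myh11 was 2.68 to 90.9 FPM in these controls and went down to 0.149 in mouse 3. After 48 h, Myh11 was at most 0.843 FPM in set 6 of the EGF/AngII batch and 2.52 in set 5 of the EGF/U46619 batch. It reached 269 FPM in set 5 of the EGF/AngII batch. Cnn1, another marker of these cells, was listed at 0 in every library, as were all genes of its chromosome 9 and the genes of chromosomes X and Y. In the EGF/AngII batch, the control library of culture set 4 went against its own set. Its deviations from the group means correlated at −0.41 to −0.18 with the other libraries of set 4 and at 0.88 to 0.93 with those of set 2. It stayed in the fits of 48 h under its label.

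The receptors of this group are 7-transmembrane receptors that couple to heterotrimeric G proteins. In arterial smooth muscle, coupling to Gq releases calcium from internal stores, which favours contraction. The endothelin, thrombin, vasopressin and thromboxane receptors are textbook examples of this arrangement. In the intact vessel wall several of the ligands come from the endothelium or from platelets, and endothelial cells carry receptors of the same families that favour relaxation.

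Edn1 (chr13:42301476-42307990, GRCm38, + strand) encodes the precursor of endothelin-1, a strong vasoconstrictor peptide made mainly by endothelial cells. Ednra (chr8:77663031-77724464, − strand) encodes the endothelin receptor that mediates contraction of smooth muscle, and Ednrb (chr14:103814625-103844402, − strand) the receptor that also clears the peptide and acts in endothelium and neural crest cells. S1pr1 (chr3:115710433-115715072, − strand) and S1pr3 (chr13:51408639-51422797, + strand) encode receptors for sphingosine-1-phosphate, the first typical of endothelium. Lpar1 (chr4:58435255-58553898, − strand) encodes a receptor for lysophosphatidic acid. F2r (chr13:95601803-95618487, − strand) encodes PAR1, the receptor cleaved and thereby activated by thrombin. Htr2b (chr1:86099026-86111970, − strand), P2ry2 (chr7:100996568-101012866, − strand) and Avpr1a (chr10:122448499-122453452, + strand) encode receptors for serotonin, for extracellular ATP and UTP, and for vasopressin.

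The bases upstream of a RefSeq start are shown for 4 members that rose or fell with U46619, 2 with matches to the letters searched and 2 without. They were taken from RefSeq promoter windows on GRCm38.p6, which held entries for 9 of the 10 genes, and each line was ended where an annotated exon of the gene began. The P2ry2 window belongs to a RefSeq start inside the gene as given above, so its bases lie between exons of a longer transcript. The lines give F2r at chr13:95618488-95618716, P2ry2 at chr7:101012054-101012303, Ednra at chr8:77724465-77724702 and Avpr1a at chr10:122448249-122448498, each on the strand of its gene and read 5′ to 3′. Capitals mark a match on either strand.
F2r: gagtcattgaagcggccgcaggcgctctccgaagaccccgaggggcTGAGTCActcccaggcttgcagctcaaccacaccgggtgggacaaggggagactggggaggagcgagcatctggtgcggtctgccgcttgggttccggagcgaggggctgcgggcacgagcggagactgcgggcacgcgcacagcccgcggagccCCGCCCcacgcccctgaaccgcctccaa
P2ry2: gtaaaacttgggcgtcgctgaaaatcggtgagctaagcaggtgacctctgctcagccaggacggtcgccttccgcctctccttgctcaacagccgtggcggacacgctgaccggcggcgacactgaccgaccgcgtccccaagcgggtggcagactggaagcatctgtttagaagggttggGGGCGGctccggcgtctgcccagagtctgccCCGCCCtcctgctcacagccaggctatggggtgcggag
Ednra: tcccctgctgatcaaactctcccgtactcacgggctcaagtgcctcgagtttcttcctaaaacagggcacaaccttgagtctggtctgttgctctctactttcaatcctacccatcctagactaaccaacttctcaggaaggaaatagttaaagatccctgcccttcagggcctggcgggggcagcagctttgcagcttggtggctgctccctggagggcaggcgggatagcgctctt
Avpr1a: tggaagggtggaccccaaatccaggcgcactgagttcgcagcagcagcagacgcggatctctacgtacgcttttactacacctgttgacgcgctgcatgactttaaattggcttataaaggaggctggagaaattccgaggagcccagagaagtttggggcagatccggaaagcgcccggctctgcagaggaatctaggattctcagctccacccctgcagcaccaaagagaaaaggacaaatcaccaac

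The letters searched on both strands were those of 6 known elements. TGA and TCA with any base between them stood for AP-1 and TGACGTCA for CRE, while the CArG box, bound by serum response factor, was searched by its usual degenerate form. The TEAD element was searched as GGAATG. The GC box, typical of promoters without a TATA box, was searched as GGGCGG. The element of GATA factors was searched as AGATAA. No match overlapped another in the lines above. F2r held 1 AP-1 match, 204 to 198 bases before the start, and 1 GC box match, 49 to 44 bases before it. P2ry2 held 2 GC box matches, 69 to 64 and 38 to 33 bases before the start. Ednra and Avpr1a held no match in their windows. Among 32851 windows of 250 bases, 6.75% held an AP-1 match, 1.55% a CRE, 1.47% a CArG box, 12.6% a TEAD match, 32.7% a GC box and 9.99% a GATA match. These matches describe letters and no binding was measured.

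In control cultures, F2r was the gene with the most reads per length. Levels were divided by the length of the merged exons so that genes can be compared. After 24 h, F2r had 126 ± 73.0 FPM per kb (SD, n = 6) and Edn1 31.4 ± 48.8. S1pr1 with 9.55 ± 13.1 and Lpar1 with 9.26 ± 3.00 followed, and Lpar1 varied far less between the mice. S1pr3 had 4.30 ± 1.35, P2ry2 2.27 ± 1.52, Avpr1a 1.91 ± 2.87 and Ednra 1.68 ± 1.27 FPM per kb. Ednrb at 0.293 ± 0.338 and Htr2b at 0.0421 ± 0.0445 closed the order. Of the 9 pairs of neighbours, none differed beyond the spread between the mice (exact sign-flip permutation tests on log2 values, two-sided, smallest adjusted p = 0.0563), although F2r over Edn1, Edn1 over S1pr1, Lpar1 over S1pr3, S1pr3 over P2ry2 and Ednra over Ednrb held in 6 of 6 mice. With 6 mice, the smallest p this exact permutation test can give is 0.0313.

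After 48 h, the order was F2r with 144 ± 36.2 FPM per kb (SD, n = 10), Edn1 with 62.9 ± 72.2, Lpar1 with 16.4 ± 6.30 and S1pr1 with 8.77 ± 10.9, then S1pr3, Avpr1a, P2ry2, Ednra, Ednrb and Htr2b. P2ry2 at 2.64 ± 0.824 lay above Ednra at 1.42 ± 1.06 in 10 of 10 culture sets, and Ednrb at 0.669 ± 0.624 above Htr2b at 0.0349 ± 0.0419 in 9 of 10 (exact sign-flip permutation tests, adjusted p = 0.0176 for both). The other 7 pairs did not pass. These tests took the 10 culture sets as separate units, although the labels name 5 mice for them. No test with these mice as units was run. The control of culture set 4 in the EGF/AngII batch, at odds with its set, is in these means and held 386 FPM of Edn1, beside 41.9 to 48.9 in the rest of the set. Without it, 3 pairs passed, and without culture set 1 of that batch, 4.

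**Figure D1:**
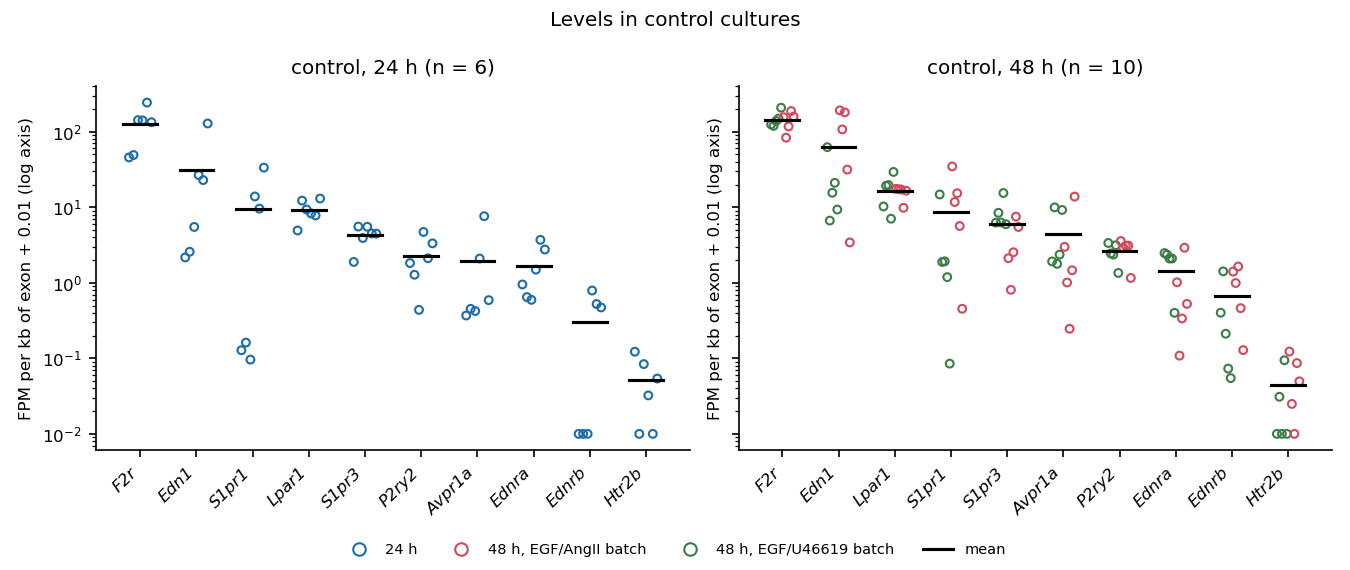
Levels of the 10 genes in control cultures after 24 h (left) and 48 h (right), as FPM per kb of exon plus 0.01 on a log axis. Each circle is 1 library, coloured by batch, and the black line is the mean. F2r stands first and Htr2b last at both times. Edn1, S1pr1 and Ednrb spread over the widest ranges after 24 h. After 48 h Avpr1a (0.630 to 36.9 FPM) spreads more widely than Ednrb (0.191 to 6.97 FPM).

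Edn1, Ednrb and S1pr1 differed mainly between mice. The mouse accounted for 93.7%, 94.5% and 97.5% of their variance in log2(FPM + 0.5) after 24 h, and the culture set for 93.2%, 88.5% and 96.8% after 48 h. The incubation accounted for 2.74%, 0.796% and 0.488% after 24 h and for 6.77%, 16.1% and 6.56% after 48 h, when the batches held different incubations. In the other members the mouse accounted for 11.6% (S1pr3) to 79.8% (P2ry2) after 24 h. After 48 h their culture set share reached 85.2% for S1pr3, 86.4% for P2ry2, 86.5% for Ednra and 88.0% for Lpar1. It was 53.4% for Htr2b, 66.4% for F2r and 72.3% for Avpr1a. S1pr1 in the controls of mice 1 to 6 was 0.359, 0.462, 0.263, 42.3, 29.2 and 102 FPM. Mice 4 to 6 therefore lay apart from mice 1 to 3. Ednrb had no read in any of the 21 libraries of mice 1 to 3. There 3 counts, taken as the upper limit of counting error for a count of 0, stand for 0.138 to 0.226 FPM. Edn1 in the same controls was 4.61, 5.49, 11.7, 57.0, 48.9 and 275 FPM, again with mice 4 to 6 above the others.

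After 24 h, summed endothelial markers were higher in the same mice as these 3 genes. Their sum over 12 genes, with Cdh5 and Esam listed at 0 in every library, was 4.92 to 18.7 FPM in mouse 1, 6.88 to 9.96 in mouse 2, 43.5 to 70.9 in mouse 3, 747 to 986 in mouse 4, 407 to 562 in mouse 5 and 2294 to 3013 in mouse 6. Pecam1, the defining marker that was read, stayed at or under 5.88 FPM in mice 1 to 3 and was at least 141 FPM in mice 4 to 6. Vwf in the controls was at most 3.10 FPM in mice 1 to 3 and at least 19.1 in mice 4 to 6. Kdr did not follow, with 47.9 FPM in the control of mouse 3 and 6.85, 12.5 and 12.4 in mice 4 to 6. After 48 h the highest sums, 2737 to 3046 FPM, were those of culture set 1 of the EGF/AngII batch, with 83.2 to 112 FPM of S1pr1. The lowest sums, 11.0 to 21.2 FPM, were those of culture set 5 of the EGF/U46619 batch. Its control had 11.3 FPM of Kdr, beside at most 3.20 in the other controls of the batch. S1pr1 was 0.229 to 2.15 FPM in this set of lowest sums. Ednrb did not follow this order within the EGF/U46619 batch, where it was highest in the control of culture set 2 (6.00 FPM beside 1.67 in set 1), with endothelial sums of 145 to 171.3 FPM in set 2 and 1076 to 1354 in set 1. Schwann and melanocyte markers summed to 78.2 to 145 FPM in set 2 and 9.20 to 59.9 in the other sets of that batch, and Sox10, a defining gene of these cells, was 19.2 to 30.7 FPM in set 2 and at most 0.0965 in the others. Edn1 in the controls of this batch was lowest in set 2, at 14.2 FPM, and not in set 5, at 19.9. The part of endothelial, Schwann or melanocyte cells in these levels was not tested. In bulk RNA, fewer cells of a type and less RNA per cell cannot be told apart.

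**Figure D2:**
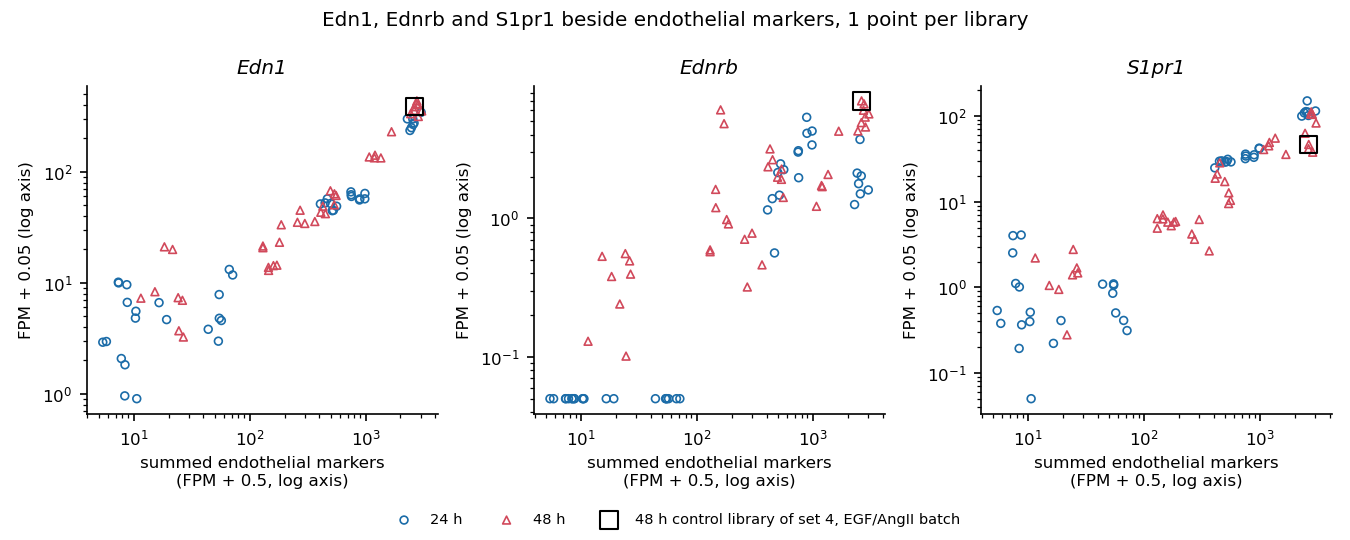
Edn1, Ednrb and S1pr1 (FPM plus 0.05, log axis) against the summed endothelial markers (FPM plus 0.5, log axis) in each library, with circles for 24 h and triangles for 48 h. At 24 h, mice 4 to 6 hold both the higher marker sums and the higher levels of the 3 genes. The square marks the control library of culture set 4 in the EGF/AngII batch, with 386 FPM of Edn1 against 41.9 to 48.9 FPM in the other libraries of its set.

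After 24 h with U46619, alone or combined, Ednra and Lpar1 fell and F2r and P2ry2 rose, and no gene was called with AngII alone. A gene was called regulated with an FDR, a Benjamini-Hochberg adjusted p over all genes tested, under 0.05 by both edgeR (quasi-likelihood) and DESeq2 (Wald) and at least 5 FPM on average in 1 of the groups. Of the 10 genes, 9 passed the filter on low counts, and Htr2b did not. U46619 against control called 5 of these 9 (3 higher, 2 lower), where 27.8% of all 14528 genes were called (13.7% higher, 14.2% lower). EGF+U46619 called 5 as well (3 higher, 2 lower), against 33.4% of all genes (17.1% and 16.3%), and EGF+AngII+U46619 called 5 (3 higher, 2 lower), against 34.6% (18.2% and 16.3%). The 3 comparisons share their controls. Because this list and the gene lists below were chosen with earlier results of these data known, the shares are a description and not a test. The median log2-fold change of the 9 genes was 0.25, 0.57 and 0.49 in this order, and that of all genes −0.06, −0.05 and −0.04.

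Ednra fell most. In control cultures it had 3.20 to 20.2 FPM (median 6.64), with U46619 1.03 to 7.33 (median 2.05), with EGF+U46619 0.494 to 4.19 (median 3.14) and with EGF+AngII+U46619 1.19 to 4.85 (median 2.48). The groups overlapped, because mice differed, but within a mouse the culture with U46619 alone was lower in 6 of 6 and that with EGF+U46619 in 5 of 6. The exception was mouse 3, with 3.20 FPM in the control and 4.19 with EGF+U46619. The log2-fold change was −1.55 ± 0.35 (SE) with U46619 (FDR 0.000904 in edgeR and 4.29e-05 in DESeq2), −1.60 ± 0.35 with EGF+U46619 and −1.63 ± 0.35 with EGF+AngII+U46619. Over all incubations of 24 h, the 18 libraries with U46619 had 0.494 to 7.33 FPM (median 2.61) and the 24 without it 2.15 to 20.2 (median 8.47). An exon of 4933431K23Rik on the other strand shares 91 bases with Ednra, and the sources used here do not state whether counting used strand.

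Lpar1 fell less, but in every mouse. It had 21.1 to 55.9 FPM (median 37.8) in the controls, 16.5 to 37.9 (median 27.3) with U46619, 15.2 to 40.4 (median 27.4) with EGF+U46619 and 18.2 to 33.7 (median 26.0) with EGF+AngII+U46619. The ranges overlapped, and 6 of 6 mice were lower than their own control in each of the 3 groups. The log2-fold changes were −0.54 ± 0.16 (edgeR FDR 0.0109), −0.58 ± 0.16 and −0.58 ± 0.16. Without mouse 5, the first was −0.49 ± 0.19 with an edgeR FDR of 0.0545 and was no longer called.

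P2ry2 rose with the smallest error. It had 1.68 to 18.4 FPM (median 7.69) in the controls, 5.51 to 31.0 (median 16.4) with U46619, 3.77 to 35.7 (median 17.3) with EGF+U46619 and 2.64 to 35.4 (median 17.4) with EGF+AngII+U46619. Mouse 3 had the lowest and mouse 4 the highest level in each of these groups, and all 6 mice rose in each. The log2-fold changes were 1.09 ± 0.16 (edgeR FDR 1.6e-05), 1.09 ± 0.16 and 0.99 ± 0.16.

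F2r, already the most abundant member, rose as well. It had 152.3 to 811 FPM (median 458) in the controls, 474 to 1012 (median 612) with U46619, 493.2 to 1072 (median 563) with EGF+U46619 and 471 to 894 (median 578) with EGF+AngII+U46619. By ratio, the largest steps were in mice 1 and 2, from 152.3 to 474 and from 163.9 to 478 FPM with U46619, and mice 4 to 6 rose less. Log2-fold changes were 0.89 ± 0.20 (edgeR FDR 0.00107), 0.89 ± 0.20 and 0.77 ± 0.20. With EGF+AngII+U46619, mouse 3 had 471 FPM beside 475 in its control, and beside 1011 with U46619 and 1072 with EGF+U46619. Without this mouse the log2-fold change with EGF+AngII+U46619 was 0.89.

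Avpr1a rose with U46619 and with EGF+AngII+U46619, on few reads and unevenly. In the controls of mice 1 to 6 it had 0.958, 1.18, 1.10, 5.56, 20.3 and 1.55 FPM, and with U46619 2.61, 8.26, 2.88, 16.1, 14.7 and 16.6. Mouse 5, with by far the highest control, was the exception and decreased, to 7.75 FPM with EGF+U46619 and 7.17 with all 3 substances. With all 3, mouse 3 was lower as well, at 0.528 FPM. The log2-fold change was 1.72 ± 0.56 with U46619 (edgeR FDR 0.0169, higher in 5 of 6 mice) and 1.43 ± 0.57 with EGF+AngII+U46619 (edgeR FDR 0.0406, 4 of 6 mice). The first call was lost without mouse 2, 4 or 6 and the second without mouse 1, 2, 4 or 6. With EGF+U46619 it was 1.20 ± 0.56 and was not called (edgeR FDR 0.0848).

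S1pr3 was called with EGF+U46619 only, which does not show that the incubations differ. It had 8.38 to 24.7 FPM (median 19.98) in the controls, 18.0 to 59.3 (median 31.3) with EGF+U46619, 12.6 to 70.6 (median 25.1) with U46619 and 16.3 to 48.9 (median 27.7) with EGF+AngII+U46619. Mice 1 and 3 rose most, from 8.38 to 47.6 and from 17.4 to 59.3 FPM with EGF+U46619, and mouse 2 went the other way, from 24.7 to 18.0. The log2-fold change was 0.75 ± 0.30 (edgeR FDR 0.0447), against 0.54 ± 0.30 with U46619 and 0.49 ± 0.30 with EGF+AngII+U46619. The call was lost without mouse 1, 3, 4 or 5. EGF+U46619 against U46619 was 0.21 ± 0.29 (95% interval −0.37 to 0.79).

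**Figure D3:**
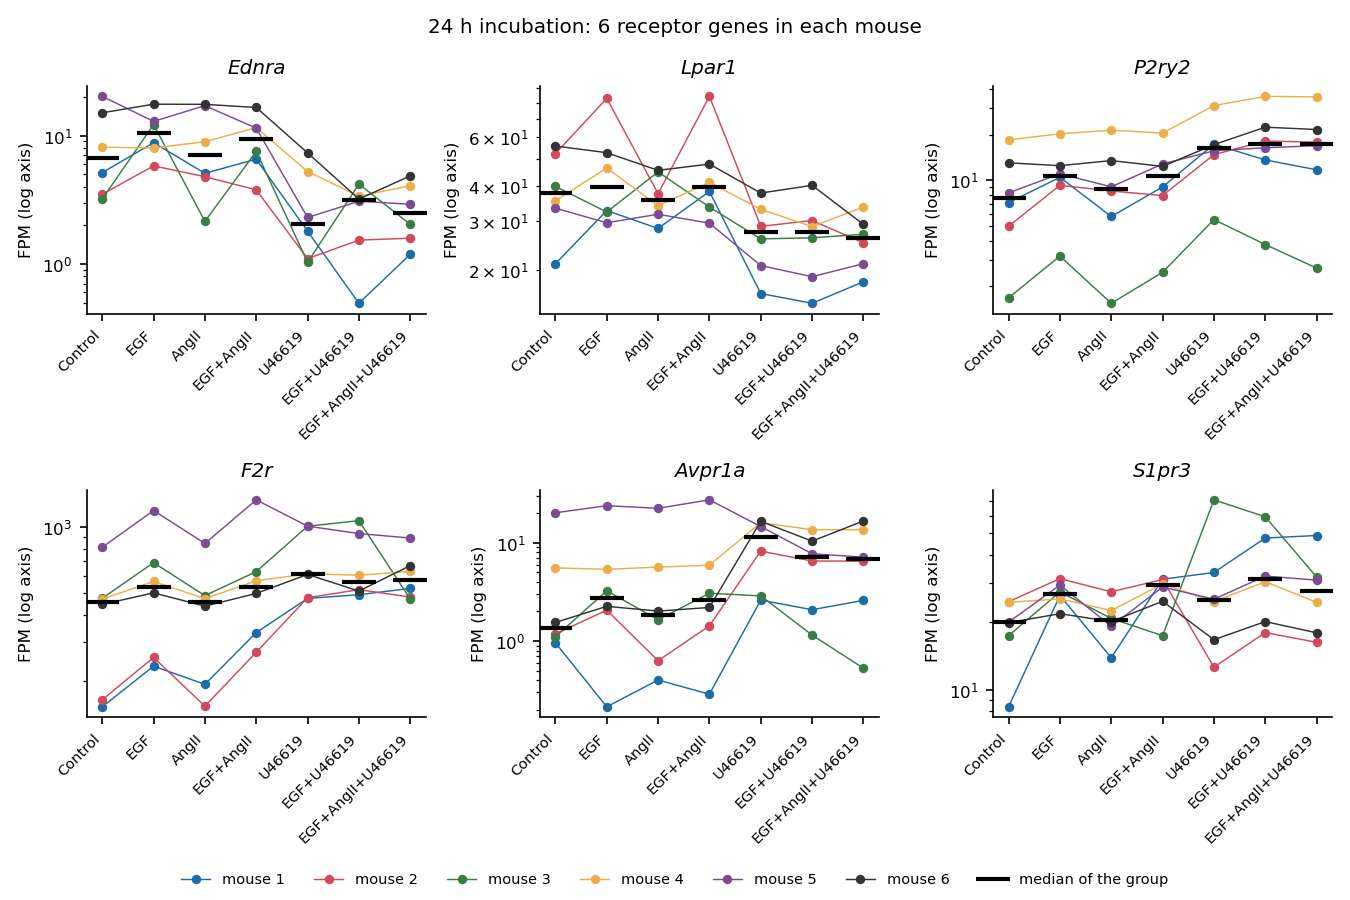
FPM (log axis) of Ednra, Lpar1, P2ry2, F2r, Avpr1a and S1pr3 after 24 h in the 7 groups. Each coloured line joins the 7 cultures of 1 mouse and the black dash is the group median. Ednra and Lpar1 lie lower and P2ry2 and F2r higher in the 3 groups with U46619, and mouse 5 goes the other way for Avpr1a.

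EGF alone called none of the 9 genes after 24 h with edgeR or DESeq2, where 0.0275% of all genes were called. At an unadjusted p under 0.05, 3 were found by each tool: Edn1, F2r and P2ry2. Of all 14528 genes, 2535 had such a p in both tools. Edn1 was lower in 6 of 6 mice, from 4.61 to 0.854, 5.49 to 1.78 and 11.7 to 2.93 FPM in mice 1 to 3 and from 57.0 to 55.7, 48.9 to 44.6 and 275 to 249 in mice 4 to 6. The step was thus large in the mice with few Edn1 reads and small in the others, and the log2-fold change of −0.83 ± 0.32 had an edgeR FDR of 0.16. F2r with 0.45 ± 0.20, higher in 6 of 6 mice, and P2ry2 with 0.45 ± 0.16, higher in 5 of 6, did not pass either. EGF+AngII called none (3.13% of all genes), with the same 3 genes at an unadjusted p under 0.05 in each tool. Here 3554 of all 14528 genes had such a p in both tools. AngII alone called none, as for all genes (0.0%), and no member had an unadjusted p under 0.05 in either tool. Its log2-fold changes lay between −0.04 for Lpar1 and 0.16 for Ednrb.

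Compared with EGF directly, U46619 gave 4 calls of 9, 2 in each direction (11.3% of all genes, 6.19% higher and 5.13% lower). EGF+U46619 gave 3, 1 higher and 2 lower (13.3%, 7.03% and 6.26%). Ednra was lower by a log2-fold change of −2.01 ± 0.35 and −2.07 ± 0.35, from 5.81 to 17.6 FPM with EGF, and Lpar1 by −0.74 ± 0.16 and −0.78 ± 0.16. P2ry2 was higher by 0.65 ± 0.16 and 0.64 ± 0.16. Edn1 was higher with U46619 than with EGF, with 4.76 to 299.5 FPM against 0.854 to 249 and a log2-fold change of 1.08 ± 0.32 (edgeR FDR 0.0199). This call was lost without mouse 1, 2 or 3.

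EGF or AngII added beside U46619, and AngII beside EGF, gave no call. EGF+U46619 against U46619, EGF+AngII against EGF, EGF+AngII+U46619 against EGF+U46619 and the interaction of EGF with U46619 called 0 members each in both tools, also at an unadjusted p under 0.05, and 0.0% of all genes. For Ednra, EGF+U46619 against U46619 was −0.05 (95% interval −0.75 to 0.64), for Lpar1 −0.05 (−0.36 to 0.27), for P2ry2 −0.00147 (−0.28 to 0.27) and for F2r 0.00202 (−0.39 to 0.39).

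**Figure D4:**
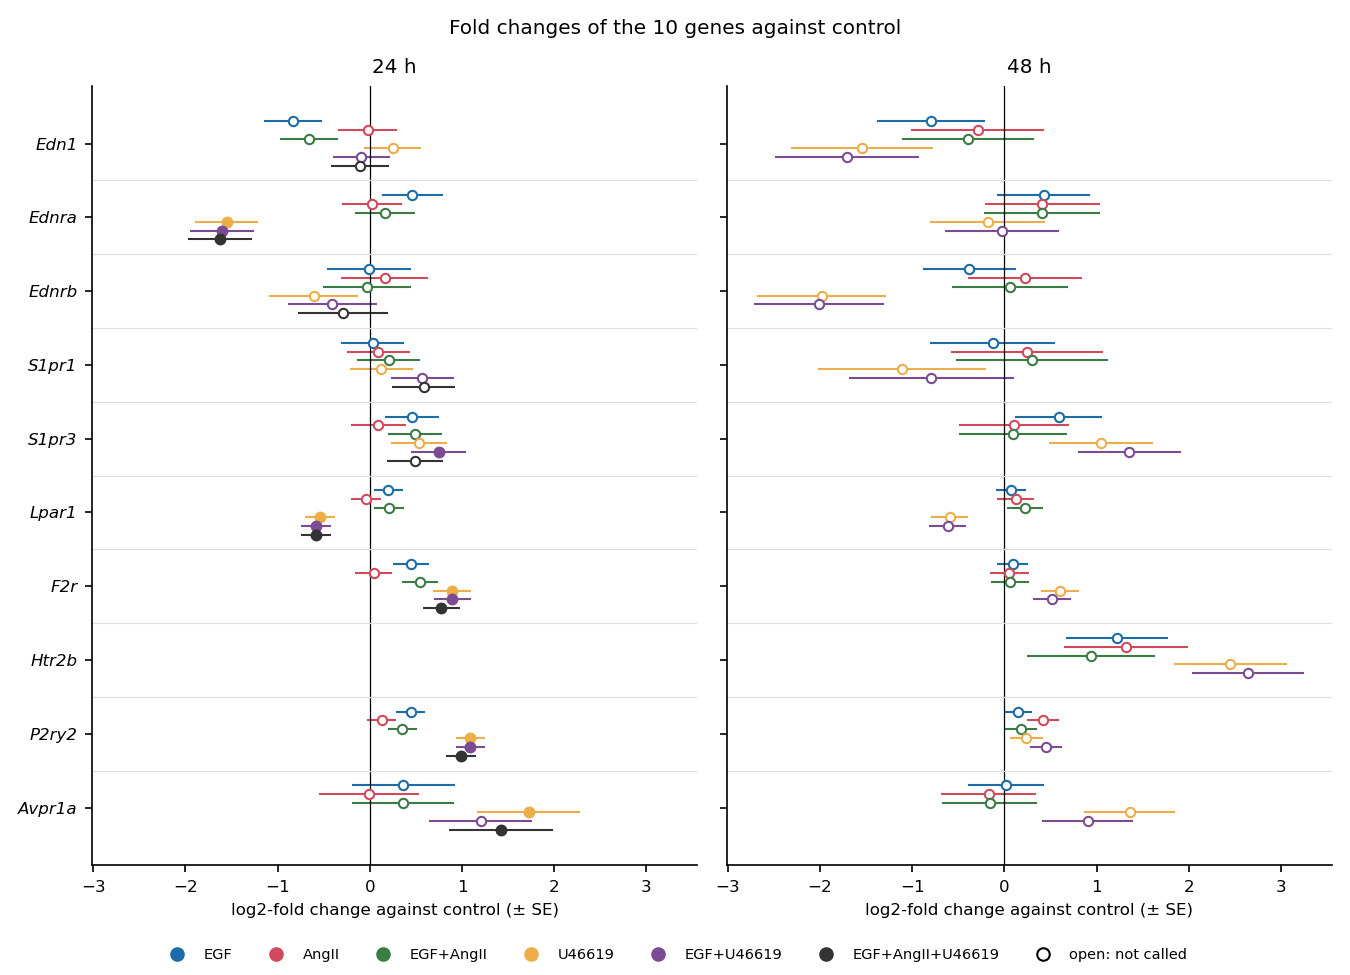
Log2-fold change against control (points) with its SE (bars) for each gene after 24 h (left) and 48 h (right), coloured by incubation, with filled points for calls and open points for the others. Filled points occur at 24 h in the 3 groups with U46619, where Ednra reaches −1.63 and Avpr1a 1.72, and none of the points at 48 h is filled.

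After 48 h, no member was called with U46619 against control (4.03% of all genes were) or with EGF+U46619 against control (6.85%). At an unadjusted p under 0.05, 4 members in edgeR and 5 in DESeq2 differed with U46619, and 6 in each tool with EGF+U46619. DESeq2's FDR alone was under 0.05 for Ednrb, Lpar1 and F2r with U46619 and for Ednrb and Lpar1 with EGF+U46619. Ednrb stayed under 5 FPM on average in the groups, and its controls had 1.80 FPM in the EGF/U46619 batch and 3.91 in the other. Within the EGF/U46619 batch alone, Ednrb had a log2-fold change of −0.65 ± 0.55 with U46619 (edgeR FDR 0.482), lower in 3 of 5 sets. Lpar1 in EGF+U46619 against EGF was the only call, with a log2-fold change of −0.69 ± 0.20 (edgeR FDR 0.0437, 4.81% of all genes called). All 5 sets of the EGF/U46619 batch were lower. The call was lost on leaving out any 1 culture set except set 5 of the EGF/AngII batch, with log2-fold changes from −0.78 to −0.62. U46619 against EGF called 0 members (3.21%), with 4 at an unadjusted p under 0.05 in each tool. Of all 14528 genes, 2855 had such a p in both tools in this comparison. EGF, AngII and EGF+AngII called none (0.0% of all genes), and of the 9 genes P2ry2 with AngII was the only one with an unadjusted p under 0.05, in both tools (0.42 ± 0.17).

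These fits took the mouse numbers of the labels, under which cultures of different sets share a mouse, and the controls of both batches, including the control library of set 4 in the EGF/AngII batch. That library had 0.630 FPM of Avpr1a beside 21.99 to 27.7 in the rest of its set, and 1.79 FPM of Ednra beside 9.34 to 11.8. With culture sets instead of mice as the block, U46619 against control called 2 members (10.6% of all genes) and EGF+U46619 4 (14.9%). Within the EGF/U46619 batch alone, U46619 called 4 (10.6%) and EGF+U46619 3 (14.8%).

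Within that batch, F2r was 416, 399, 463, 499 and 694 FPM in the controls of sets 1 to 5 and 651, 770, 799, 605 and 923 with U46619. Each set was higher with U46619, while the groups overlapped because of the control of set 5. The log2-fold change within the batch was 0.61 ± 0.12 (edgeR FDR 0.00429), and 0.54 ± 0.12 with EGF+U46619. Lpar1 was 43.9, 82.6, 84.3, 30.2 and 126 FPM in the controls and 29.3, 59.7, 59.6, 26.7 and 95.4 with U46619. All 5 sets were lower, and the log2-fold change was −0.43 ± 0.11 with U46619 (edgeR FDR 0.0179) and −0.44 ± 0.11 with EGF+U46619.

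P2ry2 was 13.2, 9.58, 9.22, 12.3 and 5.27 FPM in these controls, 18.0, 12.3, 14.3, 14.9 and 6.84 with U46619, and 21.2, 11.9, 15.8, 17.7 and 9.85 with EGF+U46619. All 5 sets were higher in both groups, with set 5 the lowest throughout. The log2-fold changes within the batch were 0.42 ± 0.11 and 0.65 ± 0.11. Avpr1a was 5.09, 26.6, 4.73, 6.29 and 24.6 FPM in the controls and 15.8, 30.4, 26.5, 8.83 and 44.1 with U46619. It was higher in 5 of 5 sets, most in sets 1 and 3, with a log2-fold change of 1.11 ± 0.31 within the batch (edgeR FDR 0.0263). Ednra had 13.5, 12.9, 11.4, 11.4 and 2.14 FPM in the controls and 8.62, 7.82, 8.79, 12.4 and 1.84 with U46619, lower in 4 of 5 sets, and was not called against control in any of these fits.

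S1pr3 was 27.9, 37.6, 28.1, 68.9 and 26.6 FPM in the same controls and 38.9, 51.8, 68.0, 151.97 and 49.5 with EGF+U46619. Every set was higher, and set 4 had the highest level in both groups. The log2-fold change was 0.82 ± 0.22 with the culture set as the block (edgeR FDR 0.00842), and the gene was not called in the fit of this batch alone.

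**Figure D5:**
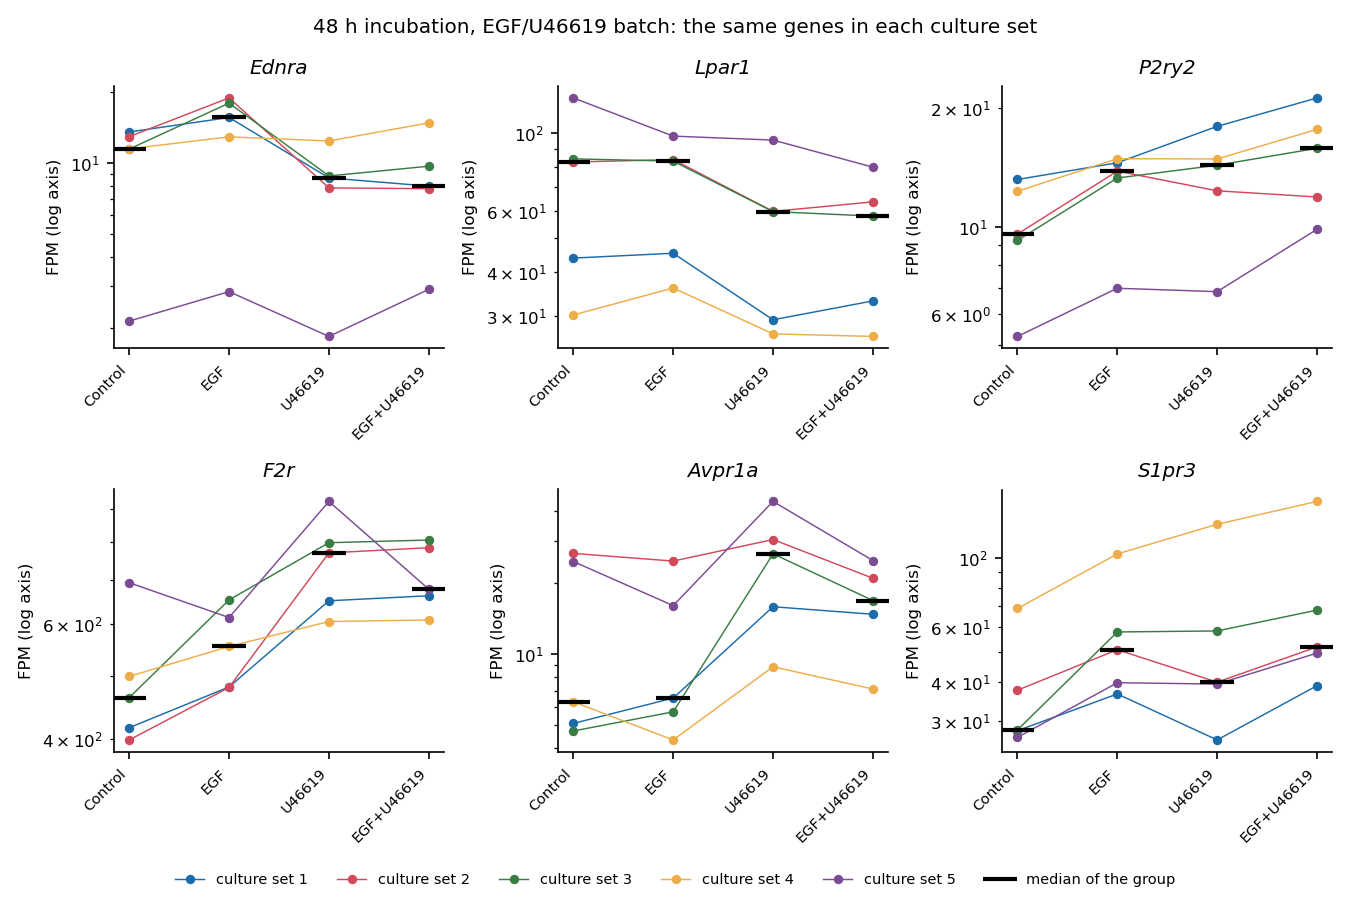
FPM (log axis) of the same 6 genes after 48 h in the 4 groups of the EGF/U46619 batch. Each coloured line joins the 4 cultures of 1 culture set and the black dash is the group median. All 5 sets are lower for Lpar1 and higher for F2r and P2ry2 with U46619 than in their controls, and culture set 5 lies apart for Ednra.

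The steps at 24 h and 48 h were compared for 9 genes in 5 comparisons against control. None of the 45 exact permutation tests on the log2 differences per mouse or culture set passed the adjustment (smallest adjusted p = 0.146, two-sided). With 6 mice against 5 sets such a test has few possible splits, and the adjustment over 45 tests is heavy. The lack of a pass therefore does not show that the steps were alike. The tests also took culture sets as separate units. For Ednra with U46619 the mean log2 difference was −1.39 ± 0.78 (SD, n = 6) after 24 h and −0.35 ± 0.33 (n = 5) after 48 h, lower in 6 of 6 mice and in 4 of 5 sets. For Lpar1 it was −0.52 ± 0.27 and −0.42 ± 0.15.

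Htr2b was near the limit of detection. It had at most 0.713 FPM after 24 h and no read in 11 libraries, and at most 1.02 FPM after 48 h with no read in 6. After 48 h its controls in the EGF/U46619 batch held 0 to 0.180 FPM and its cultures with U46619 0.0943 to 0.936. The fitted log2-fold change of 2.45 ± 0.61 (edgeR FDR 0.0174, DESeq2 FDR 0.00510) belongs to a gene under the minimum of 5 FPM and was not a call. Of its 2131 exon bases, 252 are shared with Psmd1 on the other strand, so these reads cannot be told apart without strand.

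Marker lists moved with U46619 at the same time as the receptors. After 24 h the summed smooth muscle markers were 1618 to 6667 FPM in the controls and 5214 to 20744 with U46619. They were higher in 6 of 6 mice (mean log2 difference 1.81 ± 0.71). Acta2 weighs heavily in this sum: over all cultures of mouse 1, it had 1392 to 14753 FPM and the sum 2016 to 16993. Myh11 had 15.5 to 82.4 FPM in that mouse (control 58.9) and 24.6 to 276 in mouse 2 (control 70.7). The rise of the sum therefore need not hold for each marker. The fibroblast markers were 1460 to 8686 FPM in the controls and 1350 to 3612 FPM with U46619, lower in 6 of 6 mice (−1.06 ± 0.73). Schwann and melanocyte markers were lower in 6 of 6 (7.41 to 66.5 and 3.03 to 7.50 FPM) and endothelial markers in 6 of 6 (−0.42 ± 0.28). Macrophage and leukocyte markers were lower in 4 of 6 mice, and Ptprc, which defines leukocytes, was at or under 0.0541 FPM in every library of 24 h. After 48 h, fibroblast and Schwann and melanocyte markers were lower with U46619 in 5 of 5 sets, as were endothelial markers (−0.22 ± 0.18). Macrophage and leukocyte markers were lower in 4 of 5 and smooth muscle markers in 3 of 5. The part of these shifts in the receptor levels was not tested.

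Other receptors of the same mediators and of further ones, such as catecholamines, adenosine, histamine and bradykinin, moved in both directions after 24 h. Of 42 such genes 22 were tested, and EGF+U46619 against control called 2 higher and 3 lower, where 33.4% of all genes were called (17.1% higher, 16.3% lower), with a median log2-fold change of −0.29 beside −0.05 for all genes. Adora2a, a receptor for adenosine, had 31.6 ± 31.9 FPM (SD, n = 6) in the controls and 2.76 ± 2.32 with EGF+U46619 and fell by 3.18 ± 0.64 on the log2 scale. Adrb3, a β-adrenergic receptor, fell by 2.12 ± 0.41 and Adra1b, an α1-adrenergic receptor, by 1.06 ± 0.28. Lpar6, another receptor for lysophosphatidic acid, rose by 0.79 ± 0.27, and Adra2a, an α2-adrenergic receptor, by 0.75 ± 0.26. After 48 h, EGF+U46619 called 1 of the 22 (6.85% of all genes), Adra1b with −1.36 ± 0.32.

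Of 30 genes that make or remove the ligands 18 were tested, and 2 rose and 5 fell with EGF+U46619 after 24 h (median −0.07), beside the same 33.4% of all genes called. Sphk1, which makes sphingosine-1-phosphate, rose by 1.00 ± 0.26, from 27.7 ± 10.6 to 59.3 ± 32.9 FPM, and Adk, which removes adenosine, by 0.37 ± 0.13. Entpd2, which hydrolyses extracellular ATP, fell by 3.45 ± 0.52 on the log2 scale, from 28.7 ± 38.0 to 1.57 ± 1.19 FPM. Enpp2, which makes lysophosphatidic acid, fell by 1.56 ± 0.46 and Plpp3, which breaks down lysophosphatidic acid and sphingosine-1-phosphate, by 1.13 ± 0.34. After 48 h, Sphk1 with 1.13 ± 0.32 and Entpd2 with −2.03 ± 0.60 were called in the same directions.

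Of 33 genes for G protein coupling and desensitisation 28 were tested, and 6 rose and 5 fell with EGF+U46619 after 24 h (median 0.03), again beside 33.4% of all genes. Grk6, a receptor kinase, rose by 0.86 ± 0.15 from 78.7 ± 10.7 to 144 ± 19.3 FPM and Itpr3, a calcium channel of the internal stores, by 0.68 ± 0.16. Arrb1, which encodes β-arrestin 1, fell by 0.71 ± 0.17 on the log2 scale, and the protein kinase C genes Prkcd and Prkce fell by 0.70 ± 0.14 and 0.55 ± 0.12. After 48 h none of the 28 was called in both tools with EGF+U46619 (Arrb1 −0.71 ± 0.24, edgeR FDR 0.0580, DESeq2 FDR 0.0313).

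The genes most like each member were sought by the correlation of log2(FPM + 0.5), as deviations from the mean of the mouse, over the 42 libraries of 24 h among 10162 genes. The libraries share their mice, treatments and depth, so the values are a description. F2r was most like Cers6 (r = 0.96) and Ccn4 (0.94), with 0.83 and 0.62 over the 40 libraries of 48 h. P2ry2 was most like Rin1 (0.93, and 0.69 at 48 h), Lpar1 like the prostacyclin receptor gene Ptgir (0.92, and 0.72) and Ednra like Dtx4 (0.88, and 0.69). For Avpr1a it was Inhbb (0.89), whose likeness was 0.17 at 48 h, and then Glipr1 (0.78, and 0.80 at 48 h). Edn1 was most like Lims2 (0.92, and 0.23 at 48 h), S1pr1 like Tmem171 (0.80, and 0.39) and S1pr3 like Scd2 (0.80, and 0.26). The first genes of F2r, Lpar1, P2ry2 and Ednra thus stayed at 0.69 or above at the later time, and those of Edn1, S1pr1, S1pr3 and Avpr1a at 0.39 or below.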

How the data were processed

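The authors aligned paired-end reads of poly(A) RNA to mm10 with HISAT2 2.1.0 and counted them per gene with featureCounts, multi-mapping reads included. The deposited tables hold these counts as whole numbers. Whether strand was used is not given in the sources used here. Groups, replicate and mouse numbers came from the labels.

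Each time was fitted with all its libraries in R 4.3.3, with treatment and mouse as terms, in edgeR 4.0.16 (quasi-likelihood) and DESeq2 1.42.0 (Wald). Genes passed filterByExpr at both times (14653 at 24 h, 15796 at 48 h, 14528 at both). A call needed an FDR under 0.05 in both tools and a mean of 5 FPM in 1 group. SE are those implied by edgeR's statistic. FPM were scaled by TMM within a time. Level differences used log2(FPM + 0.5), or log2(FPM per kb + 0.01) on exon lengths of a GENCODE annotation of GRCm38, and exact permutation tests. The fits were tested on simulated data. Values were handled with Python 3.11.15, NumPy 2.4.6, pandas 2.3.3 and Matplotlib 3.10.9.

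Members and lists were chosen with earlier results of these data known. Named genes are all members, the 3 called genes with the largest rise and fall of each list in EGF+U46619 against control at 24 h, and the 2 genes most like each member with at least 5 FPM. One gene of the list for G protein coupling is not reported here. The comparison of 24 h with 48 h was added after the values were seen. Cultures of a replicate number come from the same mouse by the labels: 126 of 126 pairs of libraries within a mouse correlated over 0.1 after 24 h (lowest 0.40, median 0.78), and 57 of 60 within a culture set after 48 h (lowest −0.41, median 0.79). Alternatives were DESeq2 size factors, other filters, tests and minimums, no block or another block, fewer groups, the batch, and leaving out each replicate. The legacy quasi-likelihood fit of edgeR is the default of this version and equals the reported fit. Genes of chromosomes 9, X, Y and MT (7075) and the 657 genes of chromosome 8 from 98.2 Mb are listed at 0, and none of them is a member.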

Additional observations from a re-analysis of the deposited data

Results flagged for a closer look

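Of 130 groups of 4 to 10 libraries, 4 held a library far from the others. In the controls of 24 h, S1pr3 was 8.38 FPM in mouse 1 and 17.4 to 24.7 in the other mice. After 48 h with U46619, Ednra was 1.84 FPM in set 5 of the EGF/U46619 batch, where the others had 7.82 to 12.4. P2ry2 was 4.34 FPM with AngII and 3.28 FPM with EGF+AngII in culture set 6 of the EGF/AngII batch. The other sets had 13.6 to 17.6 and 11.3 to 16.5. Over all cultures of this set 6, control included, P2ry2 was 3.28 to 4.78 FPM. Over those of set 5 of the EGF/U46619 batch, Ednra was 1.84 to 2.91 FPM. These low values thus belong to whole culture sets. Chance alone gives such a library in about 0.05 of groups. The groups share mice and culture sets across incubations and are not independent, and the number of flagged groups was not tested.

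Edn1 in EGF+AngII against EGF moved in opposite ways after 24 h and 48 h. It was higher in all 6 mice after 24 h, with a mean log2 difference of 0.17, and lower in all 5 sets after 48 h, with −0.17. This difference between the times was not tested.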

How the results depend on the processing

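Of 439 alternative counts of called members, 398 stayed within 1.5 times the reported count, 23 were larger and 18 smaller. Comparisons with 0 members in the reported fit are among them, and there an unchanged 0 counts as staying. The 39 fold changes called in the reported fit or in an alternative had 720 alternative values. Of these, 622 kept their status, 54 lost a call and 44 gained one. The call of Lpar1 in EGF+U46619 against EGF after 48 h was kept in 11 alternatives and lost in 13. None of the 39 fold changes turned its direction. Uncalled ones did: after 48 h on omitting control library 4 of the EGF/AngII batch, Edn1 was 0.52 with AngII and 0.44 with EGF+AngII against control (reported fit −0.29 and −0.40, with the culture set as replicate block −0.72 and −0.92). Without the replicate block, 24 h gave 0 members with U46619, 1 with EGF+U46619, 1 with EGF+AngII+U46619, 0 with EGF+U46619 against EGF and 0 with U46619 against EGF. With only the groups compared, EGF+AngII+U46619 gave 2.

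After 48 h, U46619 against control gave 2 members with DESeq2 alone, 2 with the culture set as replicate block and 4 within the EGF/U46619 batch. EGF+U46619 against control gave 1 with DESeq2 alone, 1 with edgeR's likelihood ratio test, 4 with the culture set as replicate block, 3 within the batch and 1 on omitting control library 4 of the EGF/AngII batch. EGF+U46619 against EGF gave 0 without a filter, 0 without the replicate block, 0 with only the groups compared, 0 with the batch as a term and 3 with the culture set as replicate block. U46619 against EGF gave 1 with DESeq2 alone, 1 with the likelihood ratio test, 2 with the culture set as replicate block, 3 within the batch, 2 on omitting control library 4 and 2 on omitting control libraries 2 and 4. Leaving out 1 culture set gave 0 to 1, 0 to 2, 0 to 1 and 0 to 1 in this order. The larger values came without set 5 of the EGF/AngII batch in all 4, without its set 4 in the last 3, and without set 5 of the EGF/U46619 batch in EGF+U46619 against control (1) and U46619 against EGF (1). The number of separated neighbours in the control order ran from 2 to 4 on leaving out 1 set. The omission of control libraries and edgeR's newer quasi-likelihood fit were chosen after seeing the data. With the culture set as block, 10.6% of all genes were called after 48 h with U46619 and 14.9% with EGF+U46619 against control. Within the EGF/U46619 batch the shares were 10.6% and 14.8%, and in the reported fit 4.03% and 6.85%. For the other alternatives at either time, the share of all genes is not given here. These counts of members therefore do not show a change particular to the members. The cause of these differences was not tested. Genes with few reads, Htr2b and Ednrb first, are limited by depth, and counting intervals cover counting error only.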
